A study of Mus musculus with 8 samples.

Results

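The genes described here are 9 transcription regulators of the mammalian clock and of its nuclear receptor arm: *Rora*, which encodes the activator RORα; *Nr1d1* and *Nr1d2*, which encode the repressors REV-ERBα and REV-ERBβ; *Nfil3* and *Dbp*, which encode bZIP factors; and *Arntl* (BMAL1), *Clock*, *Bhlhe40* and *Per1*. They were chosen by name, with earlier results of these data known. All 9 of them were found among the 13704 genes with reads in at least 1 of the RNA-seq libraries of WT and Trim28-deficient Th17 cells. Both libraries came from naive CD4+ T cells of C57BL/6 mice, which were activated through CD3 and CD28 in a 3-day Th17 culture (TGF-β at 0.5 ng/ml, IL-6 at 20 ng/ml) and then given anti-CD3 again. The KO library was from TRIM28fl/flxCD4cre mice, in which Cre expressed from the *Cd4* promoter removes the loxP-flanked *Trim28* alleles in T cells, and the WT library was from mice labelled wild type, so that the controls are not stated to carry Cre. TRIM28, also called KAP1, is a scaffold protein that brings chromatin modifiers to DNA-bound factors. Neither the number of mice behind a library, nor whether they were pooled, nor the hour of the day at which the cells were taken is given in the sources used here.

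There was 1 library per genotype, with about 6650000 assigned reads for WT and 6185000 for KO. A difference between them therefore has no replicate check, and the intervals and tests below compare these libraries and not the genotypes. Intervals are exact 95% intervals and hold counting error alone: without molecular identifiers, several reads can come from the same molecule. Fold changes are given as log2 of KO over WT, from counts scaled to the library total with 0.5 added to each, and "past 2-fold" means a log2 fold change of 1 or more in either direction among the 10881 genes whose reads summed to 10 or more. The targeted gene *Trim28* was checked first: 4485 reads in WT stood against 180 in KO, which is -4.53 on the log2 scale (interval from -4.76 to -4.32). Of the T helper markers, *Cd3e*, *Cd3d*, *Cd3g*, *Cd4*, *Cd28* and *Lck* were listed in both libraries, and their summed level was 3716 CPM in WT and 3252 in KO (CPM are counts scaled to 1000000 reads). These genes did not move together: *Cd28* was at -0.67 (1338 and 839 CPM) and *Cd3e* at 0.22 (663 and 773 CPM), and the log2 fold changes of the other 4 lay between them. *Trac* had no entry. The Th17 cytokine genes *Il17a* and *Il17f* had 2226 and 3143 WT reads against 381 and 345 KO reads. The other Th17 markers were *Il23r*, within 2-fold at -0.76 (195 and 107 reads), and *Ccr6* and *Il1r1*, with 5 and 7 and with 1 and 2 reads. Marker genes of B cells were listed at a summed 11.3 CPM in WT and 7.11 CPM in KO (4 of 4 genes), and those of myeloid cells at 3.46 and 2.75 CPM (2 of 5 genes, with *Lyz2*, *Csf1r* and *Adgre1* not listed). *Cd8a* and *Cd8b1* summed to 7.97 and 4.69 CPM, and of 3 NK cell genes 1 was listed, at 0.902 and 0.97 CPM. Their part in the results below was not tested. In bulk RNA, fewer cells of a type and less RNA per cell cannot be told apart.

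ROR and REV-ERB proteins bind the same short DNA element, the hexamer AGGTCA preceded by an A/T-rich stretch. RORs activate their target genes, whereas REV-ERBs recruit a co-repressor complex. Both thereby set the level of *Arntl* and *Nfil3*. The BMAL1 and CLOCK proteins in turn pair up and activate *Nr1d1*, *Nr1d2*, *Dbp*, *Per1* and *Bhlhe40* through E-boxes, and PER, CRY and BHLHE40 proteins feed back to restrain them. In Th17 cells RORα supports IL-17 production, REV-ERB proteins compete with RORs on their target genes, NFIL3 restrains the lineage, and BHLHE40 supports cytokine production by activated helper T cells and holds down *Il10*.

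The sites below show where the members carry each other's recognition letters. They were read from RefSeq promoter windows of GRCm38.p6 that run from 250 bases before to 50 bases after an annotated start, which exist for 8 of the 9 genes (12 windows, as *Arntl*, *Per1* and *Clock* have several) and not for *Bhlhe40*. Both strands were searched for TAGGTCA and TGGGTCA (ROR and REV-ERB element cores), AGGTCA (the bare hexamer, which TAGGTCA contains), CACGTG and CACGTT (an E-box and a variant), TTANGTAA (the D-box of DBP and NFIL3) and TGACGTCA (the cAMP response element). Each sequence is written 5′ to 3′ on the gene's own strand with the matching letters in capitals.
Nfil3: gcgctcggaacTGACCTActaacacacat
Arntl: aaggcagaaagTAGGTCAgggacggaggt
Nr1d2: attggaagaagAGGTCAggaccgctcgt
Per1: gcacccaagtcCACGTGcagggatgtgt
Nr1d1: gcacagatctcAACGTGccggctgctgg
The *Nfil3* stretch lies at chr13:52981034-52981062 on the minus strand and holds TAGGTCA on the other strand, starting 12 bases before the annotated start. The *Arntl* stretch lies at chr7:113207530-113207558 on the plus strand and holds TAGGTCA starting 30 bases after the start of its second window. The *Nr1d2* stretch (chr14:18239167-18239194, minus strand) holds the bare hexamer, the *Per1* stretch (chr11:69098772-69098799, plus strand) an E-box, and the *Nr1d1* stretch (chr11:98775389-98775416, minus strand) the E-box variant on the other strand.

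TAGGTCA was thus found in 2 of the 12 windows, 1 each of *Nfil3* and *Arntl*, and in 2.61% of all 32851 windows. AGGTCA was found in 5 of the 12 (1 each of *Nr1d2*, *Nfil3*, *Arntl*, *Per1* and *Clock*) and in 16.3% of all windows. The E-box was found in 1 of the 12, of *Per1* (7.15% of all windows), and its variant in 1, of *Nr1d1* (4.68%). TGGGTCA, the D-box and the cAMP response element were in none of the 12 windows, against 3.98%, 2.32% and 1.79% of all windows. The windows of *Rora* and *Dbp* held none of these letters, which says nothing about sites elsewhere. *Rora* has a single window in this set but 9 annotated transcripts over 734843 bases, and counts per gene do not show which start was used.

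In the KO library 8 of the 9 genes were below their WT level, beside 51.4% of all genes tested below 0 on the log2 scale. Among them the counting intervals of *Nr1d1*, *Dbp* and *Per1* include 0, and those of the other 5 lie below 0. Of the 9 genes, 2 (*Rora* and *Nr1d2*) were past 2-fold lower, beside 7.94% of all genes tested, and 0 were past 2-fold higher, beside 3.75% of all genes. Their median log2 fold change was -0.72, against -0.02 over all genes tested. Adding an adjusted p under 0.05 (exact binomial test, Benjamini-Hochberg adjustment over all genes tested) to the 2-fold limit kept *Rora* (adjusted p = 1.22e-32) and *Nr1d2* (adjusted p = 3.72e-08), 2 of 9 beside 5.53% of all genes lower, and 0 of 9 beside 2.57% higher. With that adjusted p alone 4 of the 9 were lower (*Rora*, *Nr1d2*, *Clock* and *Nfil3*), beside 22.4% of all genes, most of which were within 2-fold. *Bhlhe40* was higher by the same test (adjusted p = 9.58e-08). After the correction for transcript length described below, *Rora* was the 1 gene of the 9 past 2-fold lower, beside 6.77% of all genes, and the median of the 9 was -0.56. All 9 genes passed the filter on low counts, although *Per1* did so with only 15 reads. The sum over the 9 genes was 590 CPM in WT and 576 in KO, but most of it was *Bhlhe40*. Without that gene it was 185 and 104 CPM.

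**Figure D1:**
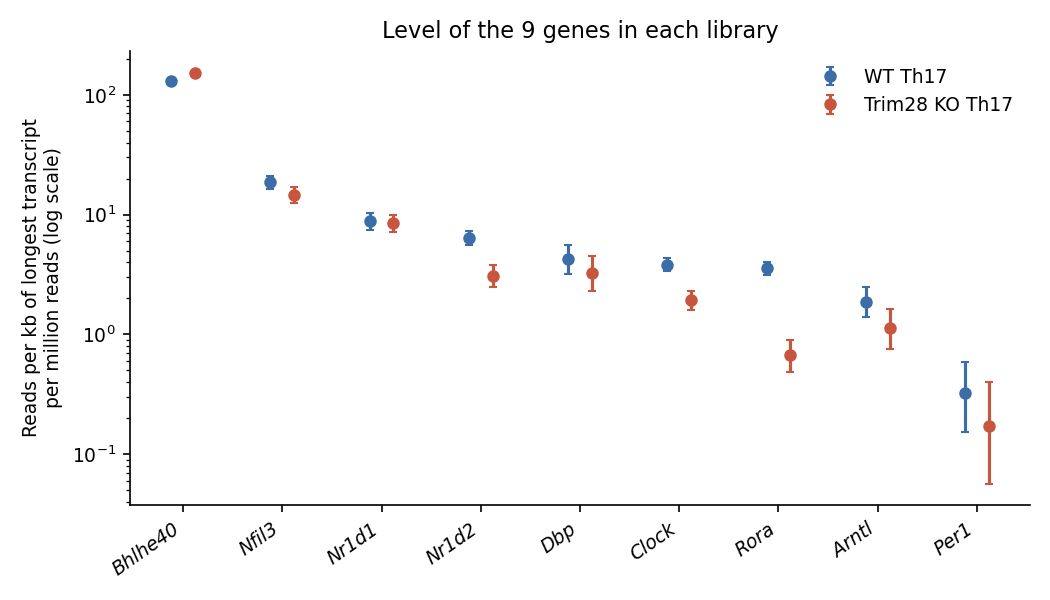
Level of each of the 9 genes in the WT (blue) and KO (red) libraries, as reads per kb of the longest annotated transcript per 1000000 reads on a log axis. Points are 1 library each and bars are exact 95% Poisson intervals, which cover counting error only. *Rora* is seventh in WT at 3.57 and eighth in KO at 0.669, below *Arntl* at 1.13.

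To compare the genes with each other, reads were divided by the length of the longest annotated transcript (reads per kb per 1000000 reads, RPKM). *Bhlhe40* stood far above the others, at 130 RPKM in WT and 152 in KO. *Nfil3* followed at 18.7 and 14.6 RPKM, *Nr1d1* at 8.79 and 8.44, and *Nr1d2* at 6.39 and 3.09. *Dbp*, *Clock* and *Rora* were close together in the WT library, at 4.26, 3.83 and 3.57 RPKM, with counting intervals that overlap (3.18 to 5.58, 3.37 to 4.33 and 3.14 to 4.03). The upper end of *Dbp* also just overlaps the lower end of *Nr1d2* (5.53 to 7.34). In the KO library the interval of *Rora* was apart from those of *Dbp* and *Clock*, with *Dbp* at 3.26 (2.29 to 4.49), *Clock* at 1.92 (1.59 to 2.31) and *Rora* at 0.669 (0.488 to 0.895). *Arntl* had 1.88 RPKM in WT and 1.13 in KO, and *Per1* was the lowest in both, at 0.322 and 0.173. In the KO library the intervals of *Dbp* and *Nr1d2* (2.48 to 3.8) overlap, those of *Dbp* and *Clock* just touch, and that of *Arntl* (0.753 to 1.64) overlaps with *Clock* above it and *Rora* below it. The remaining neighbours in the order were apart by more than counting error. These levels assume that the longest transcript is the one expressed.

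*Rora* was 5.28-fold lower in KO cells, with 258 reads in WT (38.8 CPM) and 45 in KO (7.28 CPM). On the log2 scale this is -2.40 (-2.91 to -1.95), at percentile 1.11 of all genes tested. The gene runs from 68653404 to 69388246 on the plus strand of chromosome 9 in GRCm38, and its longest transcript, with 10878 bases, is longer than that of 98.5% of the genes tested. That length matters here, since fold changes fell with transcript length over all genes: of 10 groups of genes by length, that with the longest transcripts had a median log2 fold change of -0.44 and that with the shortest 0.29 (Spearman's rho -0.37 across 10793 genes, which are not independent replicates). The smoothed curve of fold change against length stood at -0.51 at the length of *Rora*, and with that curve taken off *Rora* remained at -1.89. The nearest genes with at least 10 reads on its left and right were *Vps13c*, at 656 kb (307 and 125 reads, log2 fold change -1.19, and -0.66 after length correction), and *Ice2*, at 9.66 kb (127 and 111 reads, -0.09 with an interval from -0.47 to 0.29).

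**Figure D2:**
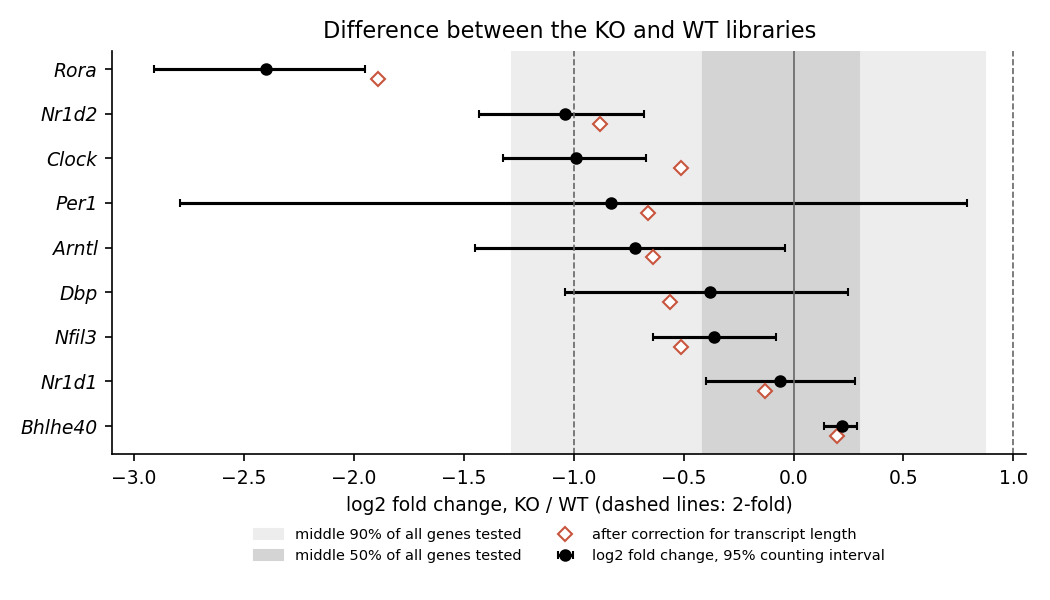
log2 fold change (KO / WT) of the 9 genes with exact 95% counting intervals (black) and after correction for transcript length (open diamonds), over bands that hold the middle 50% and 90% of all 10881 genes tested. *Rora* at -2.40 is the only one of the 9 outside the wider band; *Nr1d2* and *Clock* sit at -1.04 and -0.99, on either side of the 2-fold line, and *Bhlhe40* is the only one above 0.

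The REV-ERB genes differed from each other. *Nr1d1* had 159 reads in WT and 142 in KO (23.9 and 23.0 CPM), a log2 fold change of -0.06 with an interval from -0.40 to 0.28 and thus within counting error. *Nr1d2* (chromosome 14, minus strand, 18204056 to 18239106) had 198 and 89 reads (29.8 and 14.4 CPM), a log2 fold change of -1.04 (-1.43 to -0.68) at percentile 7.42. The *Nr1d2* to *Nr1d1* ratio, which does not depend on how the libraries are scaled, went from 1.25 reads per read in WT to 0.627 in KO, a log2 change of -0.99 (exact conditional 95% interval from -1.5 to -0.48). After correction for length the gap between these genes was -0.75, with *Nr1d2* at -0.88 and so within 2-fold, and *Nr1d1* at -0.13. *Nr1d2* has the longer transcript, 4663 bases against 2721. *Nr1d1* (chromosome 11, minus strand, 98767932 to 98775377) shares 471 exon bases with *Thra* on the opposite strand, which had 219 and 162 reads. Whether strand was used in counting is not given in the sources used here, so reads in that stretch cannot be told apart.

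The balance between the activator and the repressors of the shared element therefore differed between the libraries. In WT cells *Rora* stood at 0.406 of *Nr1d1* per transcript length and in KO cells at 0.0793, and the read ratio changed by -2.35 on the log2 scale (-2.95 to -1.77). Against *Nr1d2*, whose own level was lower in KO, *Rora* went from 0.559 to 0.217 per length, a change of -1.36 (-1.98 to -0.76). Set against both REV-ERB genes together it went from 0.235 to 0.058. The length correction left a gap of -1.76 to *Nr1d1* and of -1.01 to *Nr1d2*. These are RNA levels of *Rora*, *Nr1d1* and *Nr1d2* only.

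*Arntl* and *Nfil3*, the genes whose windows carry TAGGTCA, were within 2-fold. *Arntl* (chromosome 7, plus strand, 113178471 to 113314126) had 50 reads in WT and 28 in KO (7.52 and 4.53 CPM), a log2 fold change of -0.72 whose interval (-1.45 to -0.04) only just leaves out 0, and with the adjustment over all genes tested its exact binomial test missed the threshold (adjusted p = 0.0684). *Nfil3*, a repressor that acts at the D-boxes DBP activates (chromosome 13, minus strand, 52967209 to 52982878), had 252 and 183 reads (37.9 and 29.6 CPM), a difference of -0.36 on the log2 scale (-0.64 to -0.08, adjusted p = 0.0275 by the exact binomial test). *Dbp* had 52 and 37 reads (7.82 and 5.98 CPM) and stood at -0.38, within counting error (-1.04 to 0.25). The ratio of *Nfil3* to *Dbp* was thus 4.85 in WT and 4.95 in KO (log2 change 0.03, from -0.67 to 0.74), an interval wide enough to hide a change of over 1.5-fold either way. Because their transcripts are short, the length correction moved *Nfil3* to -0.51 and *Dbp* to -0.56. *Dbp* (chromosome 7, plus strand, 45705100 to 45710203) shares 539 exon bases with *Sphk2* on the opposite strand (55 and 29 reads), with the same limit on strand as for *Nr1d1*.

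*Clock* (chromosome 5, minus strand, 76209868 to 76305603), the partner of BMAL1, had 248 reads in WT and 116 in KO (37.3 and 18.8 CPM), 1.98-fold lower. Its log2 fold change of -0.99 (-1.32 to -0.67) lay just inside the 2-fold limit, past which *Nr1d2* lay at -1.04, and their intervals overlap. It has the second longest transcript of the 9 genes, 9744 bases, and the length correction took it to -0.51. The ratio of *Clock* to *Arntl*, 4.96 reads per read in WT and 4.14 in KO, did not differ beyond counting error (log2 change -0.26, from -1.04 to 0.54). *Npas2*, which can stand in for CLOCK beside BMAL1, had 247 and 256 reads and stood at 0.16 (-0.10 to 0.41). In reads, *Clock* and *Npas2* were level in the WT library, and *Npas2* was above *Clock* in the KO library. Per transcript length *Npas2* was the higher in both, at 8.77 and 9.77 RPKM.

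**Figure D3:**
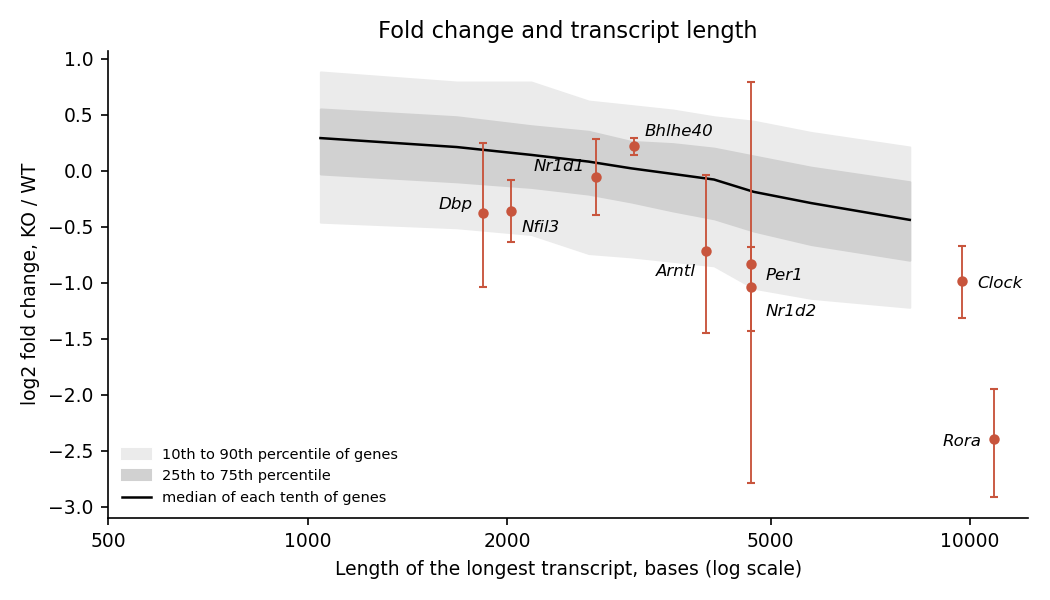
log2 fold change (KO / WT) against the length of the longest transcript (log axis) for the 9 genes (red, with 95% counting intervals), over the median and percentile bands of 10793 genes in 10 groups by length, whose medians run from 0.29 to -0.44. Bands are drawn up to the median length of the last group (8112 bases). *Rora* (10878 bases, -2.40) lies well below the level of that group's lower band (-1.22) and *Clock* (9744 bases, -0.99) does not, while *Per1* and *Nr1d2* (4671 and 4663 bases) share a place on the axis.

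*Bhlhe40* (chromosome 6, plus strand, 108660629 to 108666925) was the only gene of the 9 at a higher level in the KO library. It had 2697 reads in WT and 2919 in KO (406 and 472 CPM), a log2 fold change of 0.22. The difference is past counting error at this depth (0.14 to 0.29) and small, at 1.16-fold and percentile 69.1 of all genes tested. Its close relative *Bhlhe41* had 1 read in WT and 0 in KO, so that nearly all reads of this pair of repressors came from *Bhlhe40*. Relative to *Bhlhe40*, *Arntl* was lower in KO by -0.95 on the log2 scale (-1.68 to -0.25) and *Clock* by -1.21 (-1.55 to -0.88).

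*Per1* (chromosome 11, plus strand, 69095108 to 69109965), a period gene that outside signals induce quickly, had 10 reads in WT and 5 in KO, 1.5 and 0.808 CPM, where a floor of 3 reads would be 0.451 and 0.485 CPM. Its log2 fold change of -0.83 had an interval from -2.79 to 0.79, and a change of either sign was not detectable at this depth. *Per2* had 50 and 27 reads (-0.77, from -1.52 to -0.08; adjusted p = 0.051 by the exact binomial test). *Per3* had 30 and 43 reads and stood at 0.62, within counting error (-0.08 to 1.35). None of the period genes was past 2-fold or had an adjusted p under 0.05, so no direction is shown for them.

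Among 11 clock partners, paralogs and direct partners of the 9 genes, 8 had enough reads to be tested, and *Rorb* and *Ciart* were not listed. Of the 8, 2 were past 2-fold lower (7.94% of all genes) and 1 higher (3.75% of all genes), each on few reads and with an interval that includes 0: *Tef* (11 and 4 reads, -1.25, from -3.46 to 0.40) and *Hlf* (10 and 4, -1.12, from -3.34 to 0.58), the PAR bZIP relatives of *Dbp*, and *Arntl2*, the paralog of *Arntl* (3 and 9, 1.55, from -0.31 to 4.21). None of these 3 remained past 2-fold with 5 in place of 0.5 added to each count. The cryptochrome genes, which encode the main repressors of CLOCK and BMAL1, had more reads. *Cry1* had 494 and 309 reads and was at -0.57 (-0.78 to -0.36), and -0.60 after length correction. *Cry2* had 53 and 34 reads and -0.53 (-1.20 to 0.11). The median of the 8 genes was -0.55.

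Of 13 kinases, ubiquitin ligases and related genes that set the stability of clock proteins, 9 were tested, with a median log2 fold change of -0.07. Of the 9 tested, 0 were past 2-fold in either direction, beside 11.7% of all genes tested. *Csnk1d* and *Csnk1e*, which encode the casein kinases that mark PER proteins for decay, were at -0.09 (108 and 94 reads) and -0.04 (652 and 589 reads), with intervals that include 0. *Siah2*, a ligase of REV-ERBα, had 151 and 221 reads, the highest value of the list at 0.65 (0.35 to 0.96). *Huwe1*, another ligase of REV-ERBα, was at -0.62 (5407 and 3281 reads), and the length correction, for a transcript of 14579 bases, took it to 0.

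**Figure D4:**
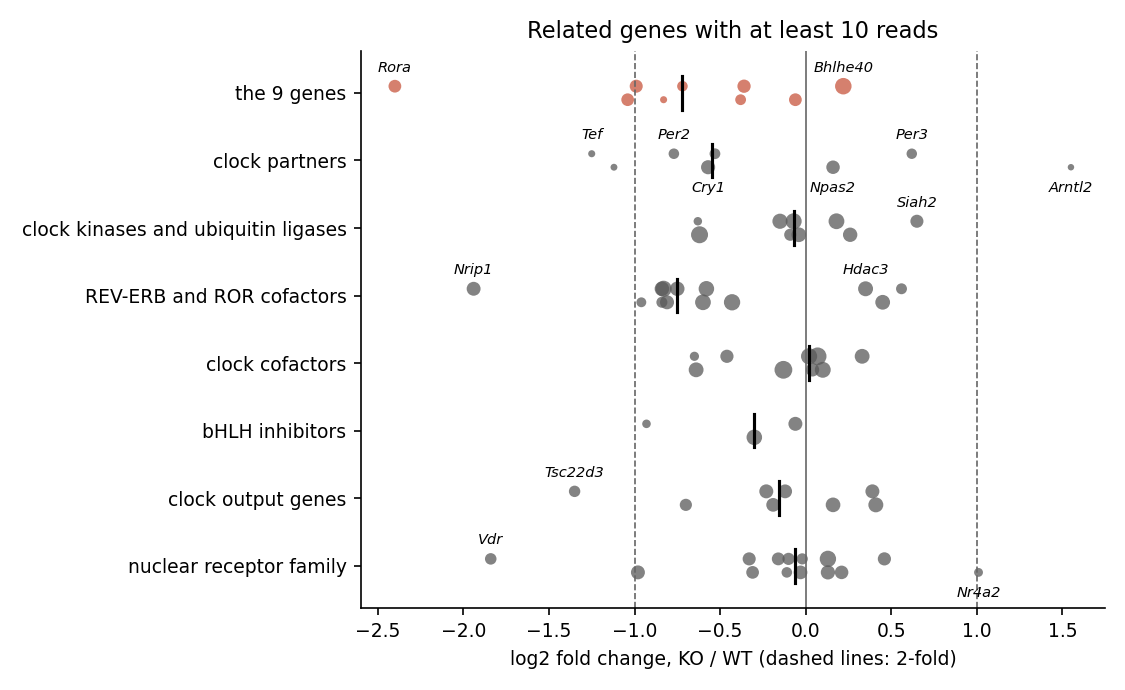
log2 fold change (KO / WT) of the 9 genes and of the tested genes of 7 related lists, with 1 point per gene, larger points for more reads and a black bar at each list's median. *Rora* at -2.40 and *Nrip1* at -1.94 stand to the left of the 2-fold line, and the medians run from -0.75 for the REV-ERB and ROR cofactors to 0.02 for the clock cofactors.

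Of 14 cofactors through which REV-ERBs repress and RORs activate, 13 were tested. Their median log2 fold change was -0.75. Of the 13, 10 were below 0, beside 51.4% of all genes, and 1 was past 2-fold lower, a share close to the 7.94% of all genes. Their median transcript of 7868 bases is also long beside 3318 bases for all genes tested, and after length correction the median of the list was -0.36. The gene past 2-fold was *Nrip1* (RIP140), a ligand-dependent corepressor of nuclear receptors, with 550 and 133 reads, a log2 fold change of -1.94 (-2.23 to -1.67) and -1.54 after length correction. *Ncor1*, the co-repressor that REV-ERBα binds, had 483 and 256 reads (-0.81) and -0.36 after the correction. *Hdac3*, the deacetylase of that complex, had 686 and 813 reads and was at 0.35 (0.20 to 0.50), and *Gps2*, a further subunit, at 0.45 (574 and 730 reads). Subunits of the complex thus lay on both sides of 0, before and after the correction.

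The position of the 9 genes showed no shared neighbourhood: they lie on 7 chromosomes, and the 2 on chromosome 7 (*Dbp* and *Arntl*) and the 2 on chromosome 11 (*Per1* and *Nr1d1*) are 67.5 and 29.7 Mb apart. Of the 18 nearest genes with at least 10 reads, 1 on each side of each member, 2 were past 2-fold lower (*Vps13c* beside *Rora*, and *Alox8* beside *Per1* with 17 and 3 reads), beside 7.94% of all genes, and 0 higher, beside 3.75%. After length correction 1 of the 18, *Alox8*, was past 2-fold lower, beside 6.77% of all genes. The median log2 fold change of the 18, uncorrected, was -0.09. *Tmem165*, which lies 0.623 kb from *Clock*, was level (599 and 561 reads, 0.01), as was *Btbd10*, 1.5 kb from *Arntl* (143 and 136 reads, 0.03). The others (*Ice2*, *Med24*, *Msl1*, *Top2b*, *Rpl15*, *Auh*, *Sptlc1*, *Itpr1*, *Arl8b*, *Mical2*, *Car11*, *Rpl18*, *Vamp2* and *Exoc1*) ran from -0.68 for *Car11* (9 and 5 reads) to 0.26 for *Auh* (95 and 106 reads). Besides *Thra* and *Sphk2*, the annotation places 4 noncoding RNA genes over exons of the 9 genes on the opposite strand: *Gm31325* and *Gm15511* over *Rora*, *Gm7467* over *Clock* and *0610040F04Rik* over *Bhlhe40*. The first 3 had no reads in either library, and *0610040F04Rik* had 1 and 2.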

How the data were processed

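RNA-seq was done on 1 WT and 1 KO library. Per the study's methods reads were mapped to mm10 with SOAP2, and the submitters' processing notes also name bcl2fastq, HTSeq, Bowtie and SICER 1.1. The authors deposited, per gene, a raw count of the reads assigned to it alone. Genes without reads are not listed and were given 0. The counting program, annotation and strand setting are not given in the sources used here. The 6 ChIP-seq samples were not analysed here.

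Counts were scaled to library totals and 0.5 was added. For the 10881 genes with 10 or more reads in all, a two-sided exact binomial test was run with Benjamini-Hochberg adjustment (SciPy 1.17.1), as the quasi-likelihood test of edgeR needs replicates. Intervals are Clopper-Pearson, Poisson for levels and conditional for ratios. Positions are from RefSeq GRCm38 (the assembly of mm10), and transcript lengths, found for 99.2% of tested genes, from GENCODE M21. The length and GC corrections took off a loess curve (span 0.3, statsmodels 0.14.6). Alternatives used edgeR 4.0.16 and DESeq2 1.42.0. The calculations were tested on simulated counts that held counting error only, which cannot check them against variation between cultures.

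The 9 genes and the gene lists were chosen with earlier results of these data known. Named were the 9 genes, *Trim28*, list genes past 2-fold with at least 50 reads in the higher library, tested clock partners, exon-overlapping genes and nearest neighbours. Other list genes were named after their values were seen. A few genes that belong to these families and lists are not reported here.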

Additional observations from a re-analysis of the deposited data

How the results depend on the processing

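With 1 library per genotype, no setting measures the variation between cultures, and *Per1*, *Tef*, *Hlf* and *Arntl2* were limited by depth. No paired analysis was possible because each group has 1 sample and the labels give no replicate numbers. Of the 9 genes, 2 were past 2-fold lower, beside 7.94% of all genes. Only *Rora* (1 gene) was with the length correction (beside 6.77% of all genes) or the GC correction (7.56%). The same held for the exact test of edgeR with a variation (CV) of 0.2 assumed between cultures (1.2%). At an assumed variation of 0.4 there were 0 of the 9 (0.0827% of all genes). At a limit of 1.5-fold there were 5, beside 17.7% of all genes. The 9 genes held 0 past 2-fold higher under each alternative run. *Rora* ranged from -2.41 to -1.89, *Nr1d2* from -1.05 to -0.88, *Arntl* from -0.73 to -0.63, *Nr1d1* from -0.13 to -0.03 and *Bhlhe40* from 0.20 to 0.26. These ranges come from the scalings, the added count and the length and GC corrections, since other filters and tests leave a fold change as it is. *Per1* had no value with at least 10 reads in each library.

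Over all genes, 864 were past 2-fold lower and 408 higher. With 5 added to each count there were 551 and 262, with at least 1 read over both libraries 2012 and 1152, with at least 10 reads in each library 406 and 195, at 1.5-fold 1927 and 1170, and with edgeR's exact test 131 and 65 at an assumed variation of 0.2 and 9 and 7 at 0.4. With the exact binomial test at an adjusted p under 0.05 there were 602 and 280. Other scalings moved the median of all genes by less than 0.1. The causes were not tested beyond what a setting's construction shows. Applying these alternatives to the related lists was chosen after seeing the data.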

Other observations

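RORα and the REV-ERBs belong to the nuclear receptor family, ligand-regulated transcription factors with a shared zinc finger DNA-binding domain. Of 42 other genes of the family analysed here, 21 had reads in at least 1 library and 14 were tested, with a median log2 fold change of -0.07. Past 2-fold lower was 1 of them, beside 7.94% of all genes tested, and 1 was past 2-fold higher, beside 3.75%. *Vdr*, the vitamin D receptor, had 109 reads in WT and 28 in KO and stood at -1.84 on the log2 scale (-2.51 to -1.25), or -1.71 after length correction. *Nr4a2*, an immediate early gene of T-cell receptor signals, had 11 and 21 reads (1.01, and its interval of -0.08 to 2.24 includes 0). *Nr3c1*, the glucocorticoid receptor, which induces *Per1* in many tissues, was level with 305 and 278 reads (-0.03, from -0.27 to 0.21). Whether *Vdr* and *Rora* have a common reason to be low in the KO library was not tested.

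Of 9 genes known as clock outputs or clock-linked targets, 8 were tested, with a median of -0.15. Of the 8, 0 were past 2-fold higher, beside 3.75% of all genes tested, and 1 was past 2-fold lower, beside 7.94%. It was *Tsc22d3* (GILZ), a glucocorticoid-induced gene, with 94 and 34 reads, at -1.35 (-1.97 to -0.78), and -1.40 after length correction. It was not called by the exact test of edgeR with a variation of 0.2 assumed between cultures. *Nampt*, a CLOCK and BMAL1 target that makes NAD+, was at 0.39 (325 and 396 reads, 0.17 to 0.61), and *Klf9*, a clock-controlled zinc finger factor, at -0.70 (131 and 75 reads, -1.13 to -0.28). The outputs past counting error thus lay on both sides of 0. Of 9 clock cofactors 0 were past 2-fold in either direction, beside 11.7% of all genes tested, with a median of 0.02. Of 4 bHLH inhibitors 3 were tested, with a median of -0.30, and 0 were past 2-fold in either direction, beside 11.7% of all genes tested. *Id2*, which binds bHLH proteins and keeps them off DNA, had 1395 and 1056 reads (-0.30, from -0.41 to -0.18), and *Id3* 378 and 338 reads (-0.06, from -0.27 to 0.16). *Id1* had 19 and 9 reads (-0.93, from -2.30 to 0.24). Length correction took *Id1* to -1.18 and so past 2-fold lower, beside 6.77% of all genes.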
